A study of Homo sapiens with 6 samples.

Results

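The alpha and beta tubulin isotypes are the 10 genes TUBA1A, TUBA1B, TUBA1C, TUBA4A, TUBB, TUBB2A, TUBB2B, TUBB3, TUBB4B and TUBB6, picked by their names among the 58735 gene rows of the deposited count table. They were read out in 6 RNA libraries of Panc-1, a human epithelial line from a pancreatic cancer, labelled wild type. For 3 libraries the line was co-cultured for 72 h with cancer-associated fibroblasts (CAF, columns headed CAF-NC), and for the other 3 with CAF overexpressing PAI-1 over the same time; PAI-1 is an inhibitor of plasminogen activators. These are called the CAF and the PAI-1 libraries below. The labels name neither the source of the fibroblasts, nor the way PAI-1 was overexpressed, nor how Panc-1 was taken apart from them. The extraction text speaks of another line, Cal27, and of Stattic and DMSO, whereas every other label names Panc-1. The replicates are called biological without saying whether cultures were grown on separate occasions, and a p-value then speaks only of the spread among the libraries at hand.

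Microtubules are built from heterodimers of 1 alpha and 1 beta tubulin. Several genes encode each class, and their products, called isotypes, differ mostly in the acidic tail at the C-terminus, which points outward and carries many of the modifications. Tubulin messages are also under autoregulation: when free heterodimers are in excess, TTC5 recognises the first residues of a nascent tubulin chain and brings about decay of the message on that ribosome. TUBB, TUBB4B, TUBA1B and TUBA1C are widely expressed, TUBB3 and TUBB2B are best known from neurons, and TUBB6 is a divergent beta isotype.

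The coding starts are shown because the residues read in autoregulation lie there. Bases are from the annotated principal transcripts of GENCODE release 29, 5′ to 3′, with codons 2 to 4 in capitals.
TUBA1B: atgCGTGAGTGC
TUBA4A: atgCGTGAATGC
TUBB: atgAGGGAAATC
TUBB2A: atgCGCGAGATC
TUBB6: atgAGGGAGATC
Codons 2 to 4 encode arginine, glutamate and cysteine in 4 of 4 alpha members and arginine, glutamate and isoleucine in 6 of 6 beta members.

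The last 63 coding bases of 4 beta members, with the final codon and the stop in capitals, cover the tail in which isotypes mostly differ.
TUBB: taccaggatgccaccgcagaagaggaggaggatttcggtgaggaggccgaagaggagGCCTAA
TUBB2A: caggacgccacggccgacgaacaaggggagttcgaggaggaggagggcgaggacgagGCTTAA
TUBB2B: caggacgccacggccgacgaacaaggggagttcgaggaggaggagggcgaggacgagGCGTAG
TUBB6: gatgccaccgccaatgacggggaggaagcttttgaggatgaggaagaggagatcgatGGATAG
TUBB2A and TUBB2B differ at 2 of these 63 bases, in the final codon and in the stop. Both final codons encode alanine, so the stretch encodes the same residues in this pair. Over the whole coding sequence TUBB2A and TUBB2B were 98.1% identical and TUBA1A and TUBA1B 97.2%. TUBB and TUBB6 were the least alike beta pair, at 81.0%. How reads shared by such copies were assigned, which bears on the values below, was not given in the sources used here.

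Totals per library ran from 13628508 to 16006880 counts, so 3 counts correspond to 0.187 to 0.22 CPM (counts scaled to the library total). PAI-1 replicate 2 stood apart: 3.78% of its counts were mitochondrial, against 4.76% to 5.92% in the other 5. Its chi-square per degree of freedom against the other PAI-1 libraries was 9.51 and 6.63, while other pairs within a group lay between 2.58 and 3.72. Of 14960 genes tested, 17.2% (2571) were higher and 15% (2239) lower in the PAI-1 libraries, 32.2% in all, at an adjusted p under 0.05. With library size alone in place of TMM scaling, 1839 were higher and 3182 lower. "Rose" and "fell" are used only of genes past that threshold.

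The libraries held keratin messages, and the fibroblast markers beside the collagens COL1A1 and COL3A1 were at or near 0. KRT8 stood at 1014.8 CPM in the CAF group and 1139.7 CPM in the PAI-1 group. Among 6 epithelial markers 4 (KRT7, KRT8, KRT18 and KRT19) rose, against 17.2% of all tested genes. With library size alone 3 rose, where 1839 of all tested genes were higher. The summed epithelial markers were at 1781.2 to 1891.0 CPM in the CAF and 2045.7 to 2308.2 CPM in the PAI-1 libraries. EPCAM was low, at 7.06 and 8.10 CPM, and so was CDH1, at 1.67 and 1.01 CPM. For CDH1 each PAI-1 library lay below each CAF library, but it did not pass (log2 fold change -0.73, adjusted p = 0.115). No library reached 1 CPM for 9 of the 11 fibroblast markers. FAP and PDGFRA had 1 count each over the CAF group and 0 over the PAI-1 group, DCN had 0 and 3, and COL1A2 had 2 and 2. The summed fibroblast markers moved from between 170.6 and 208.1 to between 244.5 and 278.5 CPM, and nearly all of that was COL1A1, a collagen chain, which rose from 185.6 to 256.7 CPM. COL3A1 was at 5.22 and 6.44 CPM. The part of these shifts in the tubulin values was not tested. All 4 markers of squamous epithelium were under 1 CPM in every library.

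Of the 10 tubulin genes, all 10 passed the filter on low counts, 4 rose and 0 fell in the PAI-1 libraries. The 4 were TUBB6, TUBB2A and TUBB2B among 6 beta members and TUBA4A among 4 alpha members. Set against 17.2% of all tested genes higher and 15% lower, this is a count on a short list of chosen genes. No member fell at an unadjusted p under 0.05 in edgeR's quasi-likelihood test either, and 0 fell with DESeq2 or limma-voom. With library size alone in place of TMM, 1 member, TUBB, was lower. The median log2 fold change of the members was 0.21, against -0.001 over all tested genes. The 2 groups did not overlap for 5 members, all of them higher, where 43.4% of all tested genes did not overlap in either direction. In RNA from a bulk culture, a change in the make-up of the cells and a change in RNA per cell cannot be told apart.

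**Figure D1:**
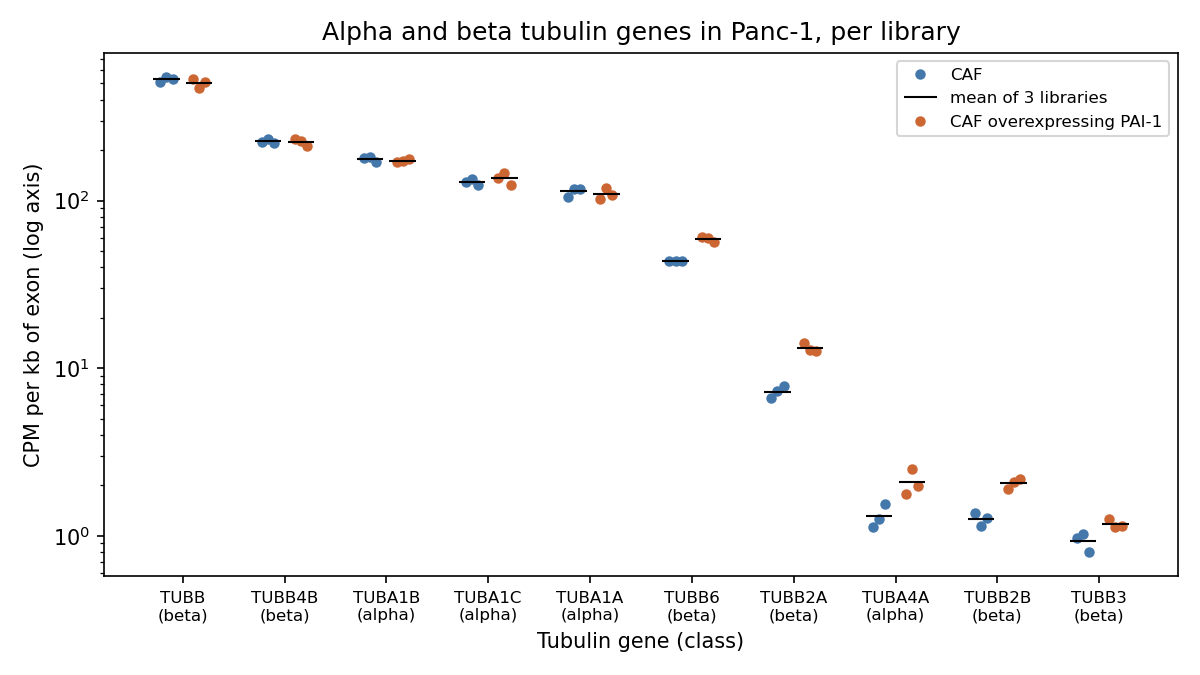
Level of each of the 10 tubulin genes in every library, as TMM-scaled CPM per kilobase of exon on a log axis. Points are the 3 CAF and the 3 PAI-1 libraries. TUBB6, TUBB2A, TUBB2B, TUBA4A and TUBB3 show 2 separate sets of points, whereas the points of TUBB, TUBB4B, TUBA1A, TUBA1B and TUBA1C intermingle.

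TUBB6 (ENSG00000176014, chr18:12307669-12344320, plus strand) had the smallest adjusted p of the members. Its level was 178.2, 178.8 and 178.7 CPM in CAF replicates 1, 2 and 3, and 250.7, 246.4 and 232.5 CPM in the PAI-1 replicates. The CAF libraries lay almost on 1 value, and every PAI-1 library was above them. The mean went from 178.6 ± 0.293 to 243.2 ± 9.50 CPM (SD, n = 3 each), a log2 fold change of 0.45 (SE 0.054, 95% interval 0.34 to 0.56, adjusted p = 4.91e-08), or 1.36-fold. Over 14 alternative analyses the log2 fold change stayed between 0.38 and 0.48. TUBB6 shares little sequence with other genes: 0.993% of the 50-base windows of its transcript occur in another gene's transcript, and 0 of its 100-base windows do. On the opposite strand AFG3L2, a subunit of a mitochondrial protease, overlaps 20.33% of the exon bases of TUBB6, and its log2 fold change was -0.04 (adjusted p = 0.682).

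TUBB2A (ENSG00000137267, chr6:3153669-3157526, minus strand) showed the largest fold change of the 10. It stood at 11.4, 12.6 and 13.5 CPM in the CAF replicates and at 24.6, 22.1 and 21.9 CPM in the PAI-1 replicates. The lowest PAI-1 library was well above the highest CAF library. Means were 12.5 ± 1.06 and 22.8 ± 1.51 CPM (SD, n = 3 each), a log2 fold change of 0.87 (SE 0.11, 95% interval 0.65 to 1.09, adjusted p = 9.46e-08) or 1.83-fold. The counts behind these levels ranged from 188 to 363 per library.

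TUBB2B (ENSG00000137285, chr6:3224261-3231730, minus strand), the neighbouring paralog, lay at 2.97, 2.52 and 2.80 CPM in the CAF replicates and 4.20, 4.58 and 4.78 CPM in the PAI-1 replicates. Again each PAI-1 library exceeded each CAF library, on only 39 to 74 counts per library. The log2 fold change was 0.71 (SE 0.21, 95% interval 0.27 to 1.14, adjusted p = 0.00973), 1.63-fold between means of 2.77 ± 0.229 and 4.52 ± 0.298 CPM (SD, n = 3 each). Of its 50-base windows 47.3% also occur in TUBB2A, and 60.3% of those of TUBB2A occur in TUBB2B. The 2 genes were therefore also summed. The sum was 14.4, 15.1 and 16.3 CPM in the CAF replicates and 28.8, 26.7 and 26.6 CPM in the PAI-1 replicates, a ratio of means of 1.79 without overlap. The sum does not depend on how shared reads were divided between the pair, though reads shared with other genes still bear on it. TUBB2A made up 12.5 of its 15.3 CPM in the CAF group and 22.8 of 27.4 CPM in the PAI-1 group. It therefore says little of TUBB2B by itself. PSMG4, a proteasome assembly chaperone on the opposite strand, overlaps 7.93% of the exon bases of TUBB2B. PSMG4 itself rose, from 13.5 to 17.3 CPM (log2 fold change 0.36, adjusted p = 0.0256), and the use of strand in counting was not given in the sources used here, which leaves the TUBB2B value uncertain on that account too.

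**Figure D2:**
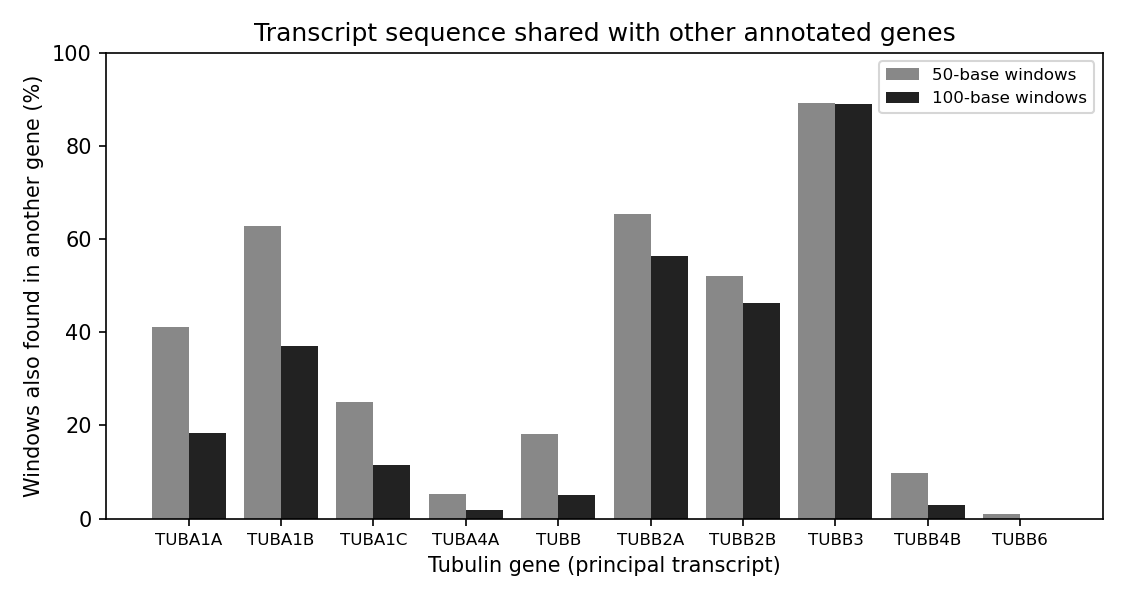
Share of the 50-base and 100-base windows of each tubulin transcript that also occur in the transcript of another gene, in percent. TUBB6 and TUBA4A share few windows, and TUBB2A, TUBB2B and TUBA1B many. The bar of TUBB3 stands for AC092143.1, a gene model that overlaps it on the same strand and has 4 counts in all 6 libraries.

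TUBA4A (ENSG00000127824, chr2:219249711-219278170, minus strand) was the only alpha member to pass the test. Its level was 4.55, 5.10 and 6.33 CPM in the CAF replicates and 7.24, 10.2 and 8.08 CPM in the PAI-1 replicates. The groups did not overlap, and PAI-1 replicate 2, the library that stood apart, was the highest. Counts of TUBA4A were low, from 75 to 141 per library. Means were 5.33 ± 0.910 and 8.52 ± 1.55 CPM (SD, n = 3 each), with a log2 fold change of 0.68 (SE 0.17, 95% interval 0.33 to 1.03, adjusted p = 0.00229). Without PAI-1 replicate 2 it was 0.53 (adjusted p = 0.024). For the other risers, that omission gave 0.43 for TUBB6, 0.89 for TUBB2A and 0.69 for TUBB2B, each still past the threshold. STK16, a kinase gene on the opposite strand, overlaps 15.37% of the exon bases of TUBA4A and had a log2 fold change of -0.08 (adjusted p = 0.529).

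TUBB3 (ENSG00000258947, chr16:89921392-89938761, plus strand), the neuronal beta isotype that is also studied in taxane resistance, did not pass. It lay at 4.31, 4.54 and 3.52 CPM in the CAF replicates and at 5.55, 5.01 and 5.11 CPM in the PAI-1 replicates. The groups did not overlap, yet the log2 fold change of 0.34 (SE 0.19, 95% interval -0.05 to 0.72) had an adjusted p of 0.177. The interval reaches from about no change to the size seen for TUBB2B. These levels rest on 49 to 82 counts per library. AC092143.1, a gene model on the same strand with 4 counts in all libraries, overlaps 35.76% of the exon bases of TUBB3. It also holds 89.36% of the 50-base windows of TUBB3. How reads that match both were assigned was not given in the sources used here, which leaves the TUBB3 level uncertain. Of 7 neuronal markers 4 stayed below 1 CPM throughout, NEFL and STMN2 among them with 0 counts, whereas the synaptotagmin gene SYT1 was at 91.4 and 85.9 CPM. SNAP25 was at 1.94 and 2.64 CPM and SYN1 at 1.06 and 1.36 CPM, and none of the 3 tested passed, though 1 of them was lower with library size alone.

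The 5 abundant isotypes did not pass the test, and their intervals lay between -0.19 and 0.19 with TMM scaling. TUBB (ENSG00000196230, chr6:30720201-30725426, plus strand), the main beta isotype here, was at 1714.6, 1841.0 and 1786.5 CPM in the CAF replicates and 1780.0, 1570.4 and 1713.9 CPM in the PAI-1 replicates. The groups overlapped, and PAI-1 replicate 2 was the lowest. Its log2 fold change was -0.08 (SE 0.056, 95% interval -0.19 to 0.04, adjusted p = 0.31). With library size alone it was -0.14 (adjusted p = 0.0392), which passed the threshold on the lower side.

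TUBB4B (ENSG00000188229, chr9:137241213-137243707, plus strand), the other widely expressed beta isotype, was at 474.9, 492.6 and 468.2 CPM in the CAF replicates and 493.1, 479.6 and 448.1 CPM in the PAI-1 replicates. These ranges lie over each other. The log2 fold change was -0.02 (95% interval -0.12 to 0.09, adjusted p = 0.858).

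The 3 abundant alpha genes lie close together on chromosome 12. TUBA1B (ENSG00000123416, chr12:49127782-49131397, minus strand) was at 642.8, 647.8 and 605.7 CPM in the CAF replicates and 610.6, 612.1 and 630.4 CPM in the PAI-1 replicates. TUBA1C (ENSG00000167553, chr12:49188736-49274603, plus strand) was at 597.9, 626.4 and 570.7 CPM, then 634.8, 679.9 and 575.6 CPM. TUBA1A (ENSG00000167552, chr12:49184796-49189324, minus strand), the alpha isotype of developing neurons, was at 358.1, 403.2 and 401.3 CPM, then 350.4, 406.3 and 371.3 CPM. In all 3 the groups overlapped. The log2 fold changes were -0.03 for TUBA1B (95% interval -0.14 to 0.07, adjusted p = 0.668), 0.07 for TUBA1C (-0.04 to 0.19, adjusted p = 0.353) and -0.04 for TUBA1A (-0.16 to 0.08, adjusted p = 0.616). Their levels relative to each other are less certain, since 62.7% of the 50-base windows of TUBA1B, 41.1% of TUBA1A and 25.1% of TUBA1C occur in other transcripts, and TUBA1A and TUBA1C overlap head to head by 490 exon bases. Their sum is free of the split among the 3, and it was 1618.0 ± 52.6 CPM in the CAF and 1623.8 ± 65.2 CPM in the PAI-1 libraries (SD, n = 3 each).

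**Figure D3:**
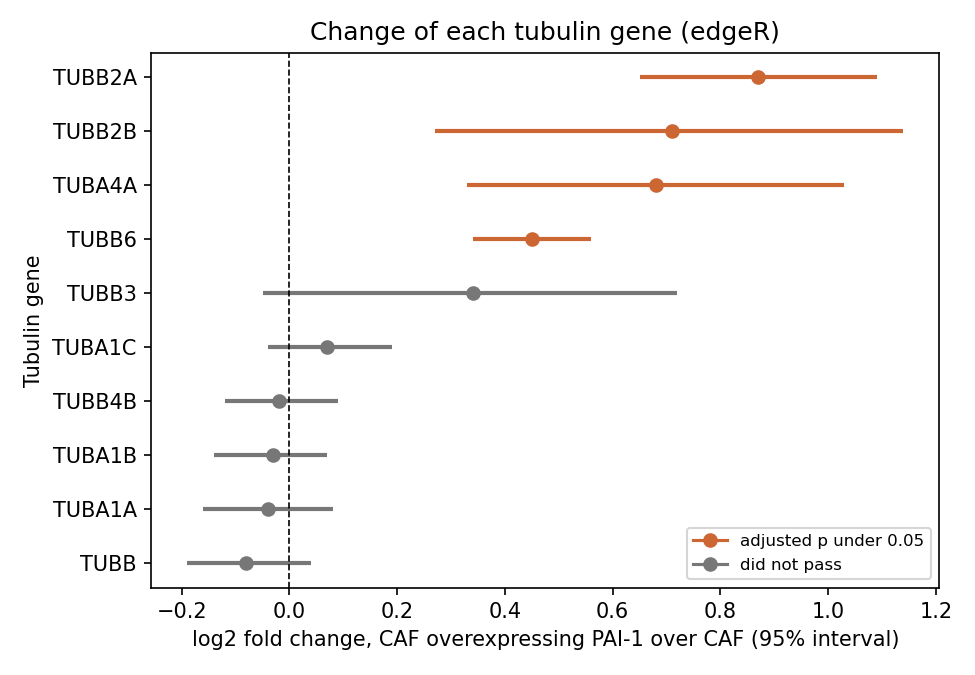
Log2 fold change of each tubulin gene, PAI-1 over CAF libraries, with its 95% interval from edgeR's fit and a dashed line at 0. The intervals of TUBB2A, TUBB2B, TUBA4A and TUBB6 lie above 0, that of TUBB3 just includes 0, and those of the 5 abundant isotypes are narrow and include 0.

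Per kilobase of exon, the order of the levels in the CAF libraries was TUBB (530.1 CPM per kb), TUBB4B (226.7), TUBA1B (176.9), TUBA1C (129.2), TUBA1A (113.3), TUBB6 (43.4), TUBB2A (7.24), TUBA4A (1.31), TUBB2B (1.26) and TUBB3 (0.931). TUBA4A and TUBB2B overlapped in their library values, and the other neighbours did not. The order depends on the length used: divided by the longest coding transcript, TUBA1A (202.4) and TUBA1C (199.4) came out close together, TUBA1B (388.5) came above TUBB4B (292.3), and TUBB3 (2.08) came above TUBB2B (1.37). The 4 isotypes that rose thus belonged to the lower-expressed members, from TUBB6 downwards, on both lengths.

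The total of each class overlapped between the groups. The 4 alpha members summed to 1623.3 ± 52.2 CPM in the CAF and 1632.4 ± 66.6 CPM in the PAI-1 libraries, and the 6 beta members to 2457.2 ± 72.9 and 2437.5 ± 115 CPM (SD, n = 3 each). Both pairs of ranges overlapped. The ratio of beta to alpha per kilobase was 1.92 ± 0.032 and 1.91 ± 0.146. TUBB6, TUBB2A, TUBB2B and TUBA4A together went from 199.2 ± 2.10 to 279.1 ± 10.4 CPM, a ratio of 1.40, within a sum over all 10 of 4080.5 ± 119 and 4069.8 ± 80.1 CPM. These 4 were chosen by their own change, so their sum is a description.

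The make-up of the beta pool, here the 6 beta members alone, moved by a few percentage points. TUBB4A, a beta isotype outside these members, fell from 9.27 to 5.91 CPM and is not in the pool. TUBB held 64.8%, 65.7% and 65.9% of the beta total per kilobase in the CAF replicates and 63%, 60.7% and 64.2% in the PAI-1 replicates. Each PAI-1 value was below each CAF value, with a difference in means of -2.87 percentage points, or -1.90 without PAI-1 replicate 2. The share of TUBB6 was 5.50%, 5.20% and 5.38%, then 7.24%, 7.77% and 7.11%, a difference of 2.01 points, also without overlap, or 3.08 points when levels were divided by the longest coding transcript. TUBB2A went from 0.894% ± 0.0679 to 1.65% ± 0.0505 and TUBB2B from 0.156% ± 0.0173 to 0.257% ± 0.0262 (SD, n = 3 each). The difference for TUBB2A was 0.753 points, or 0.428 with raw counts. The share of TUBB3 was 0.115% and 0.147%, without overlap, a difference of 0.032 points, or 0.0543 with the longest coding transcript. TUBB4B held 28.0% in both groups. In the alpha pool TUBA1B held 42.1% and 41.1%, TUBA1C 30.7% and 32.3% and TUBA1A 26.9% and 26.1%, all with overlap, and TUBA4A 0.311% and 0.495% without. Shares of 1 pool sum to 100%, so they do not move independently, and no test was made on them.

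**Figure D4:**
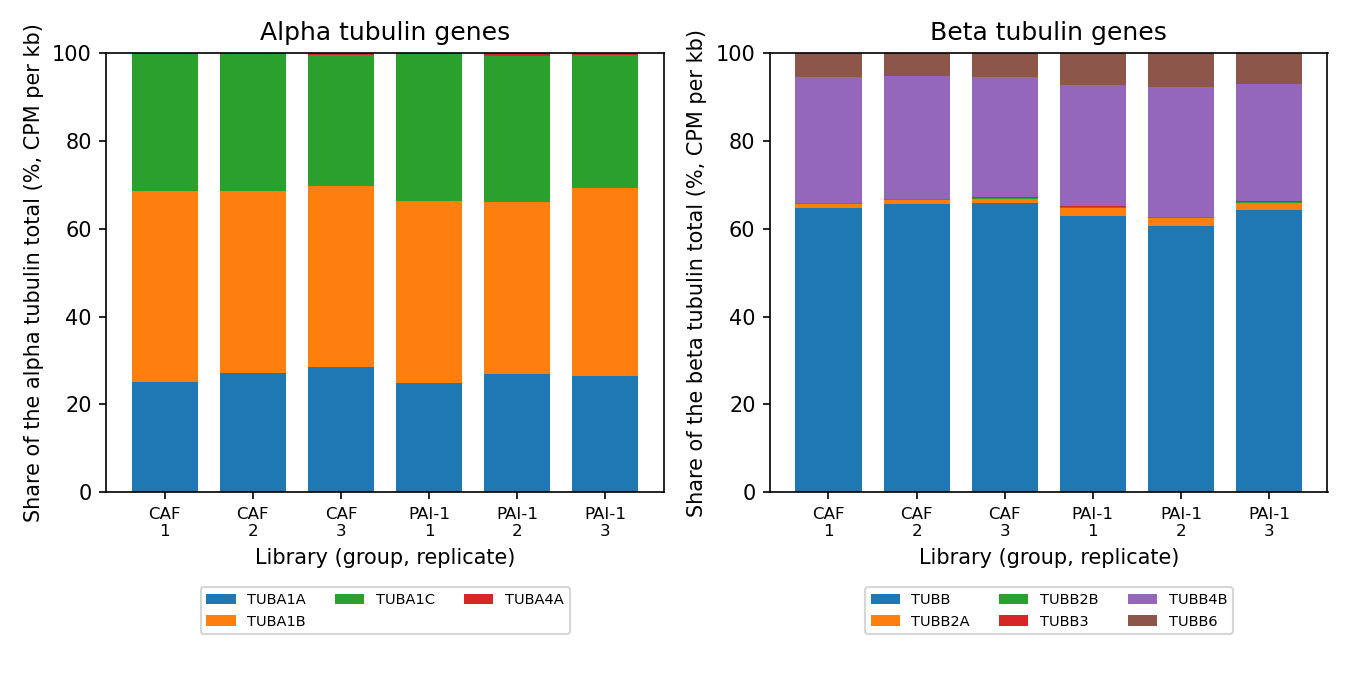
Share of each isotype in the total of the 4 alpha or the 6 beta members of every library, in percent of CPM per kb. Stacked bars stand for the 3 CAF and the 3 PAI-1 libraries. TUBB6 widens from between 5.20% and 5.50% to between 7.11% and 7.77% of the beta total, and the 3 large alpha shares stay about level.

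TUBB2A and TUBB2B both rose and are the closest beta pair in coding sequence, so the bases before their starts are shown. They are from RefSeq on GRCh38.p14, 5′ to 3′ on the strand of the gene. RefSeq promoters were matched for 10 of 10 members, each as the 250 bases before the RefSeq start. The window of TUBB2B is cut where the GENCODE transcript begins. Capitals mark matches, on either strand, to any of 7 motifs. The motifs are the CCAAT box (CCAAT), the GC box (GGGCGG), the TATA box (TATAAA), the cell cycle element CHR (TTTGAA or TTCGAA), the AP-1 site (TGACTCA), the EGR site (GCGTGGGCG or GCGGGGGCG) and the CArG box of serum response factor.
TUBB2A, chr6:3157545-3157794: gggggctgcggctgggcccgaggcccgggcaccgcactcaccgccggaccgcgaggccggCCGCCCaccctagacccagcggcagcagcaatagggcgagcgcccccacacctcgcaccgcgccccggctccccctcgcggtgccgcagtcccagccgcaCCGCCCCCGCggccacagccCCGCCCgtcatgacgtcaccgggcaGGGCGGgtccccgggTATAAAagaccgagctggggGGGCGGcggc
TUBB2B, chr6:3227736-3227903: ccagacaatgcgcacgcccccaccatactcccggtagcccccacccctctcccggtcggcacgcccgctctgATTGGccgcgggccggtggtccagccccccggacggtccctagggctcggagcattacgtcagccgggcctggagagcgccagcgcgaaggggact
TUBB2A held 5 GC boxes, a TATA box 30 bases before the RefSeq start and an EGR match 89 bases before it that overlaps a GC box. TUBB2B held a CCAAT match on the other strand 178 bases before its RefSeq start and 1 GC box 48 bases before it, the latter in the part not printed. Among all 35116 RefSeq promoters of this length, 42.64% held a GC box, 10.72% the TATA box, 32.01% the CCAAT box and 5.37% an EGR match. Of the 10 members only TUBB2A and TUBB6 held an EGR match, TUBB6 with 3 that also overlap GC boxes. Those of TUBB6 lie 97, 52 and 46 bases before the RefSeq start. Its principal GENCODE transcript begins 182 bases before that start, so these matches lie within the transcript. For TUBA1A, TUBA1C and TUBB that transcript begins 244, 175 and 151 bases before the RefSeq start, so most of each window is transcribed in that model. CHR matches were found in TUBA1C, TUBB3 and TUBB4B (background 14.34%). The AP-1 site (4.2%) and the CArG box (1.16%) matched in none of the 10 windows. A match describes letters only.

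Among 58 other rows named after alpha, beta, gamma, delta or epsilon tubulin or the gamma-tubulin complex, 30 had 0 counts in every library, 17 had counts but under 1 CPM on average and 11 had at least 1 CPM. TUBB4A, a beta isotype of the brain that is not among the 10, fell. It was at 9.10, 8.06 and 10.6 CPM in the CAF replicates and 4.94, 5.67 and 7.11 CPM in the PAI-1 replicates (log2 fold change -0.64, SE 0.16, adjusted p = 0.00244). The groups did not overlap, and the direction is opposite to that of TUBB2A, TUBB2B and TUBB6. Both gamma-tubulin genes fell: TUBG1 from 84.6 ± 4.76 to 69.0 ± 8.46 CPM (log2 fold change -0.29, adjusted p = 0.00235) and TUBG2 from 23.7 to 18.8 CPM (-0.33, adjusted p = 0.013). TUBD1, the delta-tubulin of centrioles, fell from 8.52 to 5.96 CPM (-0.52, adjusted p = 0.00903), and epsilon-tubulin TUBE1, at 17.1 and 18.7 CPM, did not pass (0.13, adjusted p = 0.369). Of the gamma-tubulin complex proteins, TUBGCP2 rose (0.21, adjusted p = 0.00543) and TUBGCP6 fell (-0.29, adjusted p = 0.00841), while TUBGCP3 (-0.14), TUBGCP4 (-0.23) and TUBGCP5 (-0.03) did not pass. The pseudogene TUBBP1, which shares 16.1% of the 50-base windows of TUBB, was at 4.37 and 4.40 CPM.

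Before tubulin can assemble, prefoldin hands the new chain to the chaperonin CCT, and cofactors TBCA to TBCE join alpha to beta. Of 23 tested rows of this folding list 7 rose and 1 fell, against 17.2% and 15% of all tested genes. The median log2 fold change was 0.11, and 5 of the 23 rose and 2 fell with library size alone. At that scaling 1839 of all tested genes were higher and 3182 lower. The prefoldin subunit PFDN2 rose from 53.5 to 83.0 CPM (log2 fold change 0.63, adjusted p = 2.4e-08) and CCT2 from 297.1 to 390.1 CPM (0.39, adjusted p = 3.43e-07). The cofactor TBCD, which takes up beta-tubulin, fell from 166.9 to 131.3 CPM (-0.35, adjusted p = 1.54e-05). CCT3, with the highest mean CPM of the list, was at 468.3 and 494.6 CPM and did not pass (0.08, adjusted p = 0.264). CCT also folds actin and other proteins, so the list is not particular to tubulin.

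Of 5 autoregulation genes 1 fell, against 15% of all tested genes. That was CNOT1, the scaffold of the CCR4-NOT deadenylase, at 228.4 and 203.1 CPM (log2 fold change -0.17, adjusted p = 0.0458). Without PAI-1 replicate 2, 0 of the 5 passed in edgeR's test. CNOT11, which docks the tubulin decay machinery, had 0.10 (adjusted p = 0.254), SCAPER -0.13 (adjusted p = 0.442) and TTC5 -0.07 (adjusted p = 0.72). The median of the list was -0.07.

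Of 18 genes for tubulin modification 4 fell and 1 rose, against 15% and 17.2% of all tested genes. The median was -0.08, and 5 of the 18 fell and 0 rose with library size alone. That scaling put 3182 of all tested genes lower and 1839 higher. The deacetylase HDAC6 fell from 86.5 to 68.3 CPM (-0.34, adjusted p = 9.27e-05), and the acetyltransferase ATAT1 that works against it fell from 13.6 to 10.0 CPM (-0.44, adjusted p = 0.0129). The polyglutamylase TTLL7 fell from 59.2 to 47.2 CPM (-0.33, adjusted p = 0.000644). The deacetylase SIRT2, with the highest mean CPM of the list, did not pass (-0.08, adjusted p = 0.323).

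Of 19 genes of the gamma-tubulin ring complex and augmin, which nucleate microtubules, 4 fell and 1 rose. The median was -0.08, and of all tested genes 15% fell and 17.2% rose. With library size alone, 7 of the 19 fell and 0 rose, where 3182 of all tested genes were lower and 1839 higher. The small subunit MZT1 fell from 36.4 to 26.2 CPM (-0.47, adjusted p = 4.03e-05), beside TUBG1 and TUBGCP2 given above.

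Proteins that bind and stabilise microtubules went both ways: 7 of 27 rose and 6 fell, against 17.2% and 15% of all tested genes. The median was 0.00, and with library size alone 5 of the 27 rose and 10 fell. At that scaling the median of the list was -0.07, against -0.068 over all tested genes. Of all tested genes 1839 were then higher and 3182 lower. TPX2, a spindle assembly factor, fell from 547.9 to 369.4 CPM (-0.57, adjusted p = 1.44e-10), CKAP5, a microtubule polymerase, from 307.8 to 223.0 CPM (-0.46, adjusted p = 3.04e-08) and NUSAP1, a spindle protein, from 15.4 to 9.13 CPM (-0.75, adjusted p = 9.96e-06). The crosslinker MACF1, with the highest mean CPM of the list, rose from 705.7 to 811.9 CPM (0.20, adjusted p = 0.0122).

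Of 11 tested destabilising and severing proteins 6 fell and 1 rose, against 15% and 17.2% of all tested genes. The median was -0.40, and 7 of the 11 fell and 1 rose with library size alone. That scaling put 3182 of all tested genes lower and 1839 higher. The mitotic kinesins KIF18A, from 46.9 to 24.2 CPM (-0.95, adjusted p = 4.04e-11), and KIF2C, from 165.4 to 107.4 CPM (-0.62, adjusted p = 1.49e-10), shorten microtubules. STMN1, which sequesters heterodimers, fell from 362.6 to 269.0 CPM (-0.43, adjusted p = 2.07e-07). Its relative STMN3 was the riser, from 49.1 to 67.8 CPM (0.47, adjusted p = 4.76e-06), and it is named after its value was seen.

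Genes of G2 and mitosis, with a median log2 fold change of -0.88, fell in 23 of 24 cases, against 15% of all tested genes. Their summed level went from between 4590.1 and 4796.5 CPM to between 2750.2 and 2796.5 CPM. MKI67, with the highest mean CPM of the list, fell by 0.53 on the log2 scale (adjusted p = 2.98e-09), PLK1 by 1.03 (adjusted p = 7.76e-16), CENPE by 1.15 (adjusted p = 4.35e-16) and KIF20A by 1.33 (adjusted p = 1.76e-15). UBE2C was the gene that did not pass. The part of this shift in the tubulin values was not tested.

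**Figure D5:**
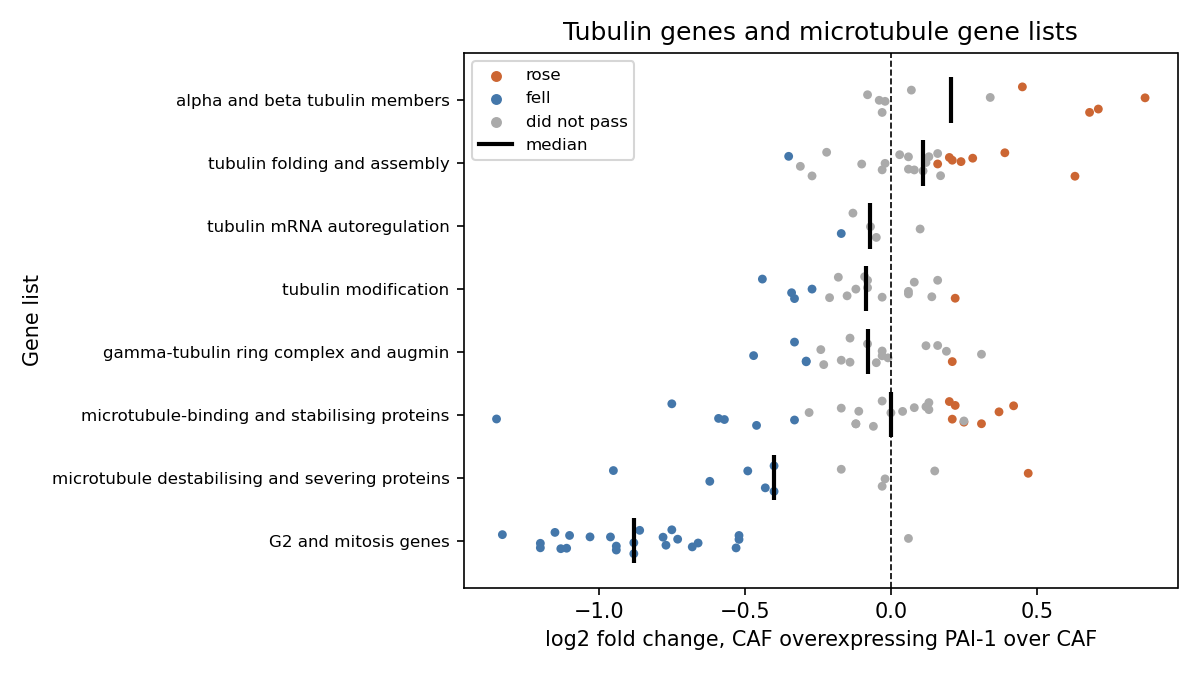
Log2 fold change of every tested gene of 8 lists, PAI-1 over CAF libraries, with the median of each list as a bar and colour for genes that rose, fell or did not pass. The tubulin members spread to the right with a median of 0.21. Destabilising proteins and the G2 and mitosis genes lie to the left at -0.40 and -0.88. The binding proteins are at 0.00 here. With library size alone more of them fall than rise, as over all tested genes, and their median is -0.07, against -0.068.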

How the data were processed

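Unnormalised counts were deposited by the authors as 1 table, gene by gene, whose 6 value columns are the 6 libraries, with 0 columns of other samples. Total RNA was prepared with oligo-dT beads, per the labels. BWA, Bowtie2, RSEM and the build hg19 are named in the submitters' processing notes, without versions or roles. Read length, strandedness, the annotation and the handling of reads with several matches were not given in the sources used here. All 58735 identifiers of the table occur in GENCODE release 29 (GRCh38), which supplied coordinates and lengths. These identify genes and need not be the positions used in alignment.

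The test across genes was that of edgeR 4.0.16 (R 4.3.3): filterByExpr (minimum count 10, minimum total 15), TMM scaling, robust glmQLFit and glmQLFTest on all genes, CAF overexpressing PAI-1 minus CAF, with Benjamini-Hochberg adjustment at 0.05. All adjusted p-values are from this fit unless another is named. CPM are TMM-scaled. The SE is the unshrunken log2 fold change over the root of F. The common biological coefficient of variation was 6.06%. Per-kilobase levels use the union of exons. The code was tested on simulated data.

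Named are the 10 members, other tubulin rows averaging 1 CPM or more, and from each list the 3 tested genes with the smallest p plus the most abundant. Further genes describe a list or a neighbour and were chosen after their values were seen. The members and lists were chosen with earlier results of these data known. Coding bases stand in for protein tails of beta members, for which no protein sequence was used here, and those of alpha members are not reported here. Tried as alternatives were library size alone, RLE scaling, 2 filters on low counts, DESeq2 1.42.0, voom of limma 3.58.1, a replicate block, each library left out, pseudogene rows added to members, and for shares, raw counts or the longest coding transcript.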

Additional observations from a re-analysis of the deposited data

How the results depend on the processing

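The counts of 4 members higher and 0 lower held with RLE scaling, no filter, DESeq2, limma-voom and each library left out. With library size alone, 1 member (TUBB) was lower. With a mean of at least 10 CPM required, 2 members were higher, because TUBA4A, TUBB2B and TUBB3 were not tested there. TUBB6 and TUBB2A passed in all 14 alternatives, and TUBA4A and TUBB2B in the 13 that tested them. Their log2 fold changes ranged from 0.38 to 0.48, 0.80 to 0.93, 0.53 to 0.82 and 0.63 to 0.77, with adjusted p of at most 4.74e-06, 6.37e-06, 0.024 and 0.0436. Signs of values near 0 changed: TUBA1A was at 0.00 without PAI-1 replicate 1, and TUBB4B at 0.01 without CAF replicate 2 and 0.02 without PAI-1 replicate 3; over the 6 omissions TUBA1A ranged from -0.11 to 0.00 and TUBB4B from -0.05 to 0.02. The cause was not tested.

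With each library left out in turn, 2124 to 2446 genes were higher and 1818 to 2227 lower. The difference in share was 0.428 points for TUBB2A, 0.0731 for TUBB2B, 0.0465 for TUBB3 and 2.72 for TUBB6 with raw counts, and 0.638, 0.0543 and 3.08 for TUBB2A, TUBB3 and TUBB6 with the longest coding transcript. With each library left out, an alternative chosen after seeing the data, the difference ranged from -3.66 to -1.90 points for TUBB and from 1.81 to 2.14 for TUBB6. Deviations from the group means correlated at 0.002, 0.012 and 0.006 between libraries with the same replicate number. With 3 libraries per group, such values cannot decide whether the numbers pair the libraries. With the replicate number as a block, 2708 genes were higher and 2361 lower, against 2571 and 2239 without it. In that fit 4 members were higher and 0 lower. Depth limits TUBB2B and TUBB3, at under 90 counts per library, and TUBA4A, at 75 to 141. Intervals cover these libraries only.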

Other observations

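The genes whose pattern over the 6 libraries was most like that of TUBA1B, the alpha member with the highest mean CPM over all 6, were PIAS4 (Pearson r of log2 CPM 0.983), FUK (0.978), SWI5 (0.977), MED23 (0.974) and ST6GAL1 (0.972), out of 10951 tested genes with at least 5 CPM. For TUBB, the beta member with the highest mean CPM, they were SH3BP4 (0.989), JMJD8 (0.986), GGT1 (0.985), CYB5R3 (0.981) and NDUFAF3 (0.980). None of these 10 genes passed the test between the groups in edgeR. The 6 points share library depth and scaling, and the values are a description without a test.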
